A study of Mus musculus with 8 samples.

Results

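Cortical layer identity genes were followed as a group of 9 genes, Cux1, Cux2, Rasgrf2 and Rorb for the upper layers and Bcl11b, Fezf2, Foxp2, Tbr1 and Tle4 for the deep layers. They were found by symbol in the deposited table, which held 1 row for each of them among 54532 genes. The table comes from bulk RNA-seq of the cortex of 8 mice, all 8 mo old and of the C57BL/6 strain, with 1 library per mouse. The 4 PS19 mice (m677, m668, m665 and m659) carry a transgene for the human 1N4R tau isoform with the P301S change, under the prion protein promoter of the mouse, which marks no single layer or cell type. The 4 Adrb1-A187V;PS19 mice (m671, m661, m660 and m658, labelled Adrb1+/m;PS19) carry the same transgene and 1 knock-in allele of the β1-adrenergic receptor gene with the A187V change. There was no group without the tau transgene, so every comparison is between 2 groups of tau mice.

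The neocortex is built of stacked layers of neurons that are born in order, deep layers first, and that send their axons to different targets. Upper layer neurons mostly connect cortical areas with each other, and layer 4 receives input from the thalamus. Neurons of layer 5 project to the striatum, brainstem and spinal cord, and those of layer 6 to the thalamus. Most of the genes followed here encode transcription factors that set or keep these identities, and they stay expressed in the adult cortex, which is why they serve as layer markers.

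Bulk RNA does not tell fewer cells of a type from less RNA per cell, and the dissected piece sets how much of each layer a library holds. The 8 libraries had between 14653222 and 21223754 counts. Counts were scaled to CPM, which sets each gene's count against the total of its library, with edgeR's TMM factors. Genotypes were compared by the quasi-likelihood test of edgeR on all 17195 genes that passed its filter on low counts, all 9 layer genes among them. No layer gene had fewer than 315 counts in any mouse. The vesicular glutamate transporter Slc17a7, which marks cortical excitatory neurons, had a mean of 1074 CPM over the 8 mice, and genes of striatal projection neurons were present as well, at levels given with Bcl11b.

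Between the genotypes, 3 of the 9 layer genes had an unadjusted p-value under 0.05, Cux1 and Foxp2 with higher and Tbr1 with lower expression in Adrb1-A187V;PS19 mice. Over all genes tested the share was 2.80%, with 1.42% higher and 1.37% lower. After Benjamini-Hochberg adjustment over the 17195 genes, the edgeR test left none of the 9 genes, and 0.00% of all genes, under 0.05. At that threshold DESeq2's Wald test and limma-voom gave 0 genes too. Before adjustment DESeq2, run without edgeR's filter on low counts, had 555 of 33611 genes under 0.05 (1.65%). Of the 17195 genes, limma-voom had 492 and edgeR 481 under 0.05 before adjustment. The differences were small and did not follow the layers. Of the 4 upper layer genes 2 had a positive and 2 a negative log2 fold change, and of the 5 deep layer genes 3 were positive and 2 negative. The median log2 fold change of the 9 genes was 0.02, next to 0.00046 over all genes tested, and the median of its size was 0.13 next to 0.07. Cux1 was the only 1 of the 9 whose CPM values did not overlap between the genotypes, as 2.02% of all genes tested did not.

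**Figure D1:**
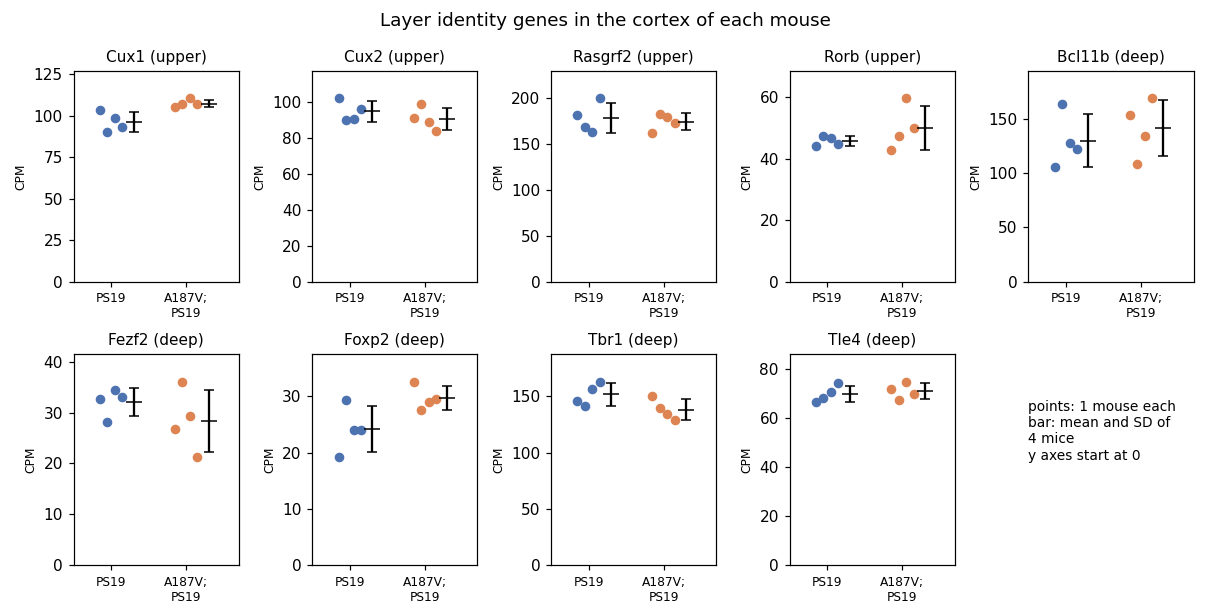
Each panel plots the CPM of 1 layer gene, one point per mouse, with the mean and SD of the 4 mice of a genotype beside them and the y axis starting at 0. Cux1 is the panel in which all 4 Adrb1-A187V;PS19 mice lie above all 4 PS19 mice, and Bcl11b, Fezf2 and Foxp2 are the panels with the widest spread.

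Levels of different genes were compared as CPM per kb of the gene length given in the deposited table. On this scale Tbr1 was highest, with a mean of 26.4 ± 2.07 CPM per kb (SD, n = 8 mice), and its lowest mouse was above the highest mouse of Rasgrf2, the next in order at 19.1 ± 1.36. Bcl11b followed with 16.7 ± 2.99 and Tle4 with 15.2 ± 0.668. Rasgrf2, Bcl11b and Tle4 were not separated as neighbours, since Rasgrf2 was above Bcl11b in 5 of 8 mice and Bcl11b above Tle4 in 5 of 8. Fezf2 had 9.92 ± 1.58 and Cux2 9.21 ± 0.587, with Fezf2 higher in 6 of 8 mice, so their order was not settled either. Cux1 had 5.08 ± 0.358 and Rorb 4.32 ± 0.479, and Foxp2 was lowest with 1.65 ± 0.259 CPM per kb. Cux1 was above Rorb in every mouse although their ranges overlapped, and Rorb was above Foxp2 without overlap. How the length column was summed over transcripts is not given in the sources used here, so a gene with many alternative exons, such as Cux1, may have a level per length that is too low.

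The genes also differed in how much they varied from mouse to mouse. Tle4 was the steadiest, with a coefficient of variation of 4.39% in CPM over the 8 mice, and Bcl11b varied most, with 17.9%. Fezf2 and Foxp2 varied by 15.9% and 15.7%, and Rorb by 11.1%. Cux1, Cux2, Rasgrf2 and Tbr1 lay between 6.37% and 7.84%, near the median of 7.21% over the 10438 genes with a mean of at least 10 CPM. In Fezf2 and in Foxp2 the highest mouse had 1.69 times the level of the lowest, and Bcl11b was close to them.

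The promoter sequences are shown for the 2 called genes that have an entry, Cux1 and Tbr1, and for Bcl11b and Fezf2, the deep layer pair with opposite order over the mice. RefSeq's table for GRCm38.p6 held windows for 8 of the 9 genes. Cux2, Rorb and Tle4 had 2 windows each, of which only the first was searched. Each line gives the 250 bases before the start that RefSeq gives for the gene, 5′ to 3′ on the gene's strand, in lower case with matches to 5 searched motifs in capitals. The windows lie at chr5:136565982-136566231 for Cux1, chr2:61804203-61804452 for Tbr1, chr12:108003415-108003664 for Bcl11b and chr14:12345866-12346115 for Fezf2, on the minus strand except for Tbr1. These RefSeq starts lie inside the genes as counted, 1509 bases from the annotated start of Cux1, 1523 from that of Tbr1, 188 from that of Bcl11b and 2324 from that of Fezf2, so the windows are not upstream of the whole counted gene.
Cux1: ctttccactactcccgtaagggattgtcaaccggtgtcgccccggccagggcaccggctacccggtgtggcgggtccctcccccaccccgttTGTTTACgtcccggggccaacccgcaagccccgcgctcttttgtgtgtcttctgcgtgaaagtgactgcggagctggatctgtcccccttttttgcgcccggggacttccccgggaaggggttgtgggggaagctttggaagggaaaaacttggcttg
Tbr1: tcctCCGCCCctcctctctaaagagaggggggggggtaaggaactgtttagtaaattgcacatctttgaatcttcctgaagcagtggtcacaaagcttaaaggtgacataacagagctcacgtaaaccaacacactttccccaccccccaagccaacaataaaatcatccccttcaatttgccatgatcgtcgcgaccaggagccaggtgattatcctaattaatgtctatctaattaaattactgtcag
Bcl11b: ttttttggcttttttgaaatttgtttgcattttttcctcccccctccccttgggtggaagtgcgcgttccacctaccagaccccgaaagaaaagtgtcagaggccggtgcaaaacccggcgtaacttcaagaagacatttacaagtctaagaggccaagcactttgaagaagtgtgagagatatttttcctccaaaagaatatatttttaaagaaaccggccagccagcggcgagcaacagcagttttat
Fezf2: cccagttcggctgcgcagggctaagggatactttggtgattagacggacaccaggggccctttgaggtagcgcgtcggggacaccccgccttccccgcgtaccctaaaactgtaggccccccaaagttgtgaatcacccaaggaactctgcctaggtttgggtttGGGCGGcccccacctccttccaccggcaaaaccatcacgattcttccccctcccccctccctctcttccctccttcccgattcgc

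The motifs were searched on both strands and do not overlap each other in these windows. They were the T-box core AGGTGTGA, the nuclear receptor half-site AGGTCA, the forkhead core TGTTTAC, the Cut homeodomain core ATCGAT and the GC box GGGCGG. These are families to which Tbr1, Rorb, Foxp2 and the Cux proteins belong, with the GC box as a general promoter element. In Cux1 the capitals mark a forkhead core, 158 to 152 bases before the start, a motif held by 3.17% of the 32851 windows in the table. In Tbr1 and Fezf2 they mark a GC box, which 32.7% of windows held, and in Bcl11b there was no match. None of the 8 windows searched, 1 per gene, held the T-box core, the nuclear receptor half-site or the Cut core, which 1.12%, 14.0% and 0.728% of all windows held. The windows of Bcl11b and Tbr1 had a GC content of 44.8% and 45.2%, below the median of 52.4%, while those searched for the other 6 genes were at least 61.2%.

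Of the upper layer genes, Cux1 and Cux2 are paralogs that encode Cut homeodomain transcription factors of layers 2 to 4 and are known for shaping dendrites and synapses there. Cux1 (ENSMUSG00000029705, chromosome 5 of GRCm38, 136248135 to 136567490) had 104, 90.3, 98.5 and 92.9 CPM in the PS19 mice m677, m668, m665 and m659. It had 105, 106.7, 110.4 and 106.9 CPM in the Adrb1-A187V;PS19 mice m671, m661, m660 and m658. The genotypes did not overlap, and the gap between them was narrow, from m677 to m671. The log2 fold change was 0.15 (standard error, SE, 0.06), or 1.11 times, with an edgeR unadjusted p of 0.0148 and an adjusted p of 0.9996. Without PS19 mouse m668, the lowest, the unadjusted p from edgeR was 0.0512 with a log2 fold change of 0.12. The Cux1 locus also encodes a Golgi protein through alternative exons, and counts per gene do not separate the 2 products.

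Cux2 (ENSMUSG00000042589, chromosome 5, 121856366 to 122050102) did not follow its paralog. It had 102, 90.2, 91.0 and 96.4 CPM in m677, m668, m665 and m659, and 91.5, 98.95, 88.9 and 84.0 CPM in m671, m661, m660 and m658. The genotypes overlapped, with the highest value in a PS19 mouse and the lowest in an Adrb1-A187V;PS19 mouse. Its log2 fold change was -0.06 (SE 0.06) and a 95% interval from -0.20 to 0.07. Over the 8 mice, Cux1 and Cux2 had a Pearson's r of -0.107 (exact permutation p = 0.790) and a Spearman's rho of -0.310 (exact permutation p = 0.462), and without the 2 mice farthest from the median of Cux1 an r of -0.210. This sign was not settled, since r was 0.361 after each genotype was centred on its own mean.

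Rasgrf2, which encodes a calcium-responsive activator of Ras and Rac and marks layers 2 and 3, is the 1 gene of the 9 that is not a regulator of transcription. Its CPM ran from 163 to 199.8 in PS19 mice and from 162 to 183 in Adrb1-A187V;PS19 mice (ENSMUSG00000021708, chromosome 13, 91880400 to 92131656). The highest value was that of PS19 mouse m659, and the other 7 mice of both genotypes shared 1 range. Its log2 fold change was -0.03 with a 95% interval from -0.18 to 0.11, and it was 0.03 without m659, so it had no settled sign.

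Rorb encodes a nuclear receptor known as a marker and organizer of layer 4. It had 44.0, 47.6, 46.8 and 44.8 CPM in m677, m668, m665 and m659 and 42.7, 47.3, 59.7 and 50.0 CPM in m671, m661, m660 and m658 (ENSMUSG00000036192, chromosome 19, 18930605 to 19111196). The PS19 mice were within a few CPM of each other, while the Adrb1-A187V;PS19 mice held both the lowest and the highest value. The log2 fold change was 0.13 (SE 0.09), and edgeR gave an unadjusted p of 0.173 (adjusted p = 0.9996). It rested on mouse m660, since it was 0.03 without m660. It was 0.19, with an unadjusted p of 0.0351 from edgeR, without m671.

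Among the deep layer genes, Bcl11b and Fezf2 are the best known regulators of layer 5 neurons that project out of the cortex, with Fezf2 acting upstream of Bcl11b during development. Bcl11b, which encodes the zinc finger protein CTIP2, is also strongly expressed by striatal projection neurons and by some interneurons. It had 105, 164, 127.5 and 122 CPM in m677, m668, m665 and m659 and 154, 108, 134.5 and 169 CPM in m671, m661, m660 and m658 (ENSMUSG00000048251, chromosome 12, 107910403 to 108003602). Both genotypes covered almost the same span, with low values in m677 and m661 and high values in m668, m671 and m658. Between genotypes Bcl11b had a log2 fold change of 0.12 (SE 0.13) and a 95% interval from -0.17 to 0.41. It ranged from 0.03 without m658 to 0.25 without m668, with 0.04 without m677 and 0.23 without m661.

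Fezf2 (ENSMUSG00000021743, chromosome 14, 12342094 to 12348189) had 32.6, 28.2, 34.5 and 33.0 CPM in m677, m668, m665 and m659 and 26.7, 36.1, 29.4 and 21.3 CPM in m671, m661, m660 and m658. The mice with high Bcl11b, m668, m671 and m658, were the 3 with the lowest Fezf2, and m661 was highest in Fezf2 and second lowest in Bcl11b. The log2 fold change of Fezf2 was -0.18 (SE 0.13) and a 95% interval from -0.45 to 0.10. Single mice moved it strongly, to -0.32 without m661 (edgeR unadjusted p = 0.0119, adjusted p = 0.9999) and to -0.06 without m658.

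Foxp2, Tbr1 and Tle4 mark layer 6. Foxp2 encodes a forkhead transcription factor of corticothalamic neurons, and it is also known in striatal and thalamic neurons. It had 19.3, 29.3, 23.9 and 24.0 CPM in m677, m668, m665 and m659 and 32.6, 27.6, 28.9 and 29.5 CPM in m671, m661, m660 and m658 (ENSMUSG00000029563, chromosome 6, 14901349 to 15441977). PS19 mouse m668 lay among the Adrb1-A187V;PS19 mice, and the other 3 PS19 mice were below all 4 of them. Foxp2 had a log2 fold change of 0.30 (SE 0.11), or 1.23 times, with an edgeR unadjusted p of 0.0144 and an adjusted p of 0.9996. It was 0.21 without PS19 mouse m677, the lowest, and 0.40 without m668, with an unadjusted p under 0.05 in both and in every other fit that left out a mouse.

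Tbr1, a T-box factor that specifies layer 6 corticothalamic neurons and represses Fezf2 and Bcl11b in them during development, went the other way. It had 145.5, 142, 157 and 163 CPM in m677, m668, m665 and m659 and 150.4, 139, 134.5 and 129 CPM in m671, m661, m660 and m658 (ENSMUSG00000035033, chromosome 2, 61802930 to 61814114). The genotypes overlapped through m671, and the other 3 Adrb1-A187V;PS19 mice were below every PS19 mouse. The resulting log2 fold change of Tbr1 was -0.13 (SE 0.06), with an edgeR unadjusted p of 0.04995 and an adjusted p of 0.9996. This unadjusted p was at the threshold. It was 0.0509 from edgeR with DESeq2's size factors, and it ran from 0.0140 to 0.159 when each mouse was left out, above 0.05 without any of m661, m660, m658, m665 and m659.

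Tle4 encodes a Groucho-family corepressor of layer 6 and some layer 5 neurons. Its CPM ran from 66.6 to 74.3 in PS19 mice and from 67.3 to 75.0 in Adrb1-A187V;PS19 mice (ENSMUSG00000024642, chromosome 19, 14448072 to 14598051), so the genotypes overlapped almost completely. Its log2 fold change was 0.02 with a 95% interval from -0.10 to 0.14, the narrowest span around 0 of the deep layer genes.

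**Figure D2:**
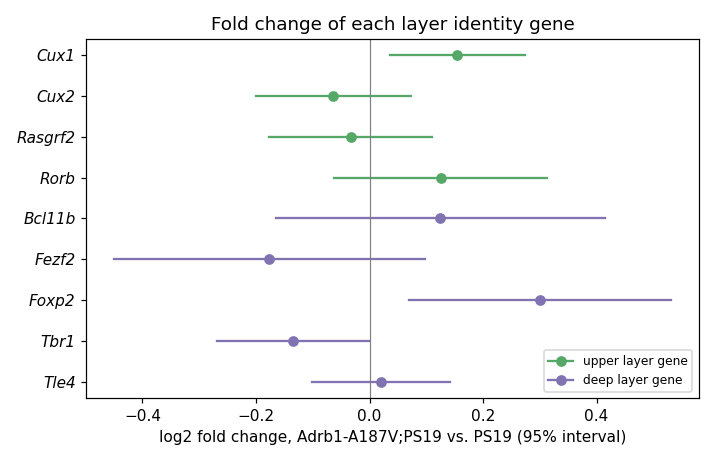
Each point is the log2 fold change of 1 layer gene in Adrb1-A187V;PS19 vs. PS19 mice from edgeR, and each line its 95% interval, with upper layer genes in green and deep layer genes in purple. The intervals of Cux1 and Foxp2 lie above 0, that of Tbr1 ends just below 0, and points of both colours lie on both sides of 0.

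To set upper against deep layers in each mouse, each gene's log2 CPM was centred on its mean over the 8 mice, and the mean over the 5 deep layer genes was subtracted from the mean over the 4 upper layer genes. The difference was 0.18, -0.12, -0.07 and -0.02 in the PS19 mice m677, m668, m665 and m659. It was -0.15, 0.07, 0.08 and 0.03 in the Adrb1-A187V;PS19 mice m671, m661, m660 and m658. Each genotype thus held mice leaning to upper and mice leaning to deep layer genes, and the extremes were a PS19 mouse, m677, and an Adrb1-A187V;PS19 mouse, m671. The genotype means were -0.01 ± 0.13 and 0.01 ± 0.11 (SD, n = 4 each), a difference of 0.02 that is well within the spread between mice. The lean in m677 came from its deep score of -0.15, with Foxp2 at -0.46 and Bcl11b at -0.34 relative to their means, rather than from its upper score of 0.03.

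**Figure D3:**
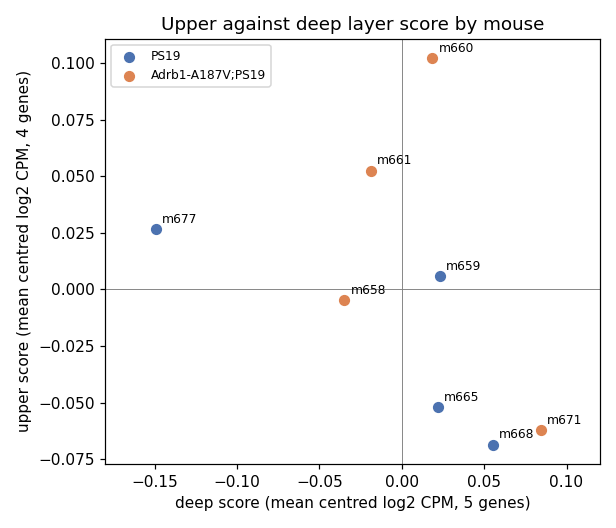
The upper score of each mouse is plotted against its deep score, both as mean centred log2 CPM, with PS19 mice in blue and Adrb1-A187V;PS19 mice in orange. The 2 genotypes share the same area, m677 stands apart to the left with the lowest deep score, and m671 and m668 lie together at the lower right.

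The deep layer genes did not move as a block. Without Bcl11b and Foxp2, the 2 deep layer genes that striatal projection neurons also express, the upper minus deep difference was 0.01, -0.02, -0.16 and -0.13 in m677, m668, m665 and m659 and -0.04, 0.00, 0.12 and 0.22 in m671, m661, m660 and m658. The genotype means were then -0.07 ± 0.08 and 0.07 ± 0.11 (SD, n = 4 each), 0.15 apart, with mice of both genotypes still overlapping. The choice of deep layer genes therefore moved this value more than any single mouse did.

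Over the 8 mice, the log2 CPM values of the 36 pairs of layer genes were correlated, with exact permutation p-values adjusted over the 36. None passed an adjusted p of 0.05 by Pearson's r or by Spearman's rho, and 4 had an unadjusted p under 0.05 by Pearson's r. The strongest was between an upper and a deep layer gene, Cux2 and Bcl11b, with r = -0.883 (exact permutation p = 0.00474, adjusted p = 0.0853) and rho = -0.881 (exact permutation p = 0.00724, adjusted p = 0.261). It was -0.878 after each genotype was centred on its own mean and -0.755 without the 2 mice farthest from the median of Cux2. Bcl11b and Fezf2, both deep layer genes, had r = -0.851 (exact permutation p = 0.00434, adjusted p = 0.0853) and rho = -0.810 (exact permutation p = 0.0218, adjusted p = 0.261). This r was -0.849 after centring and -0.818 without the 2 mice farthest from the median of Bcl11b.

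The other 2 pairs with an unadjusted p under 0.05 by Pearson's r were positive. Cux2 and Fezf2 moved together across layers, with r = 0.781 (exact permutation p = 0.0219, adjusted p = 0.262), a rho of 0.619 (exact permutation p = 0.115, adjusted p = 0.460) and an r of 0.678 without the 2 mice farthest from the median of Cux2. Bcl11b and Foxp2 did so within the deep layers, with r = 0.739 (exact permutation p = 0.0338, adjusted p = 0.304), a rho of 0.833 (exact permutation p = 0.0154, adjusted p = 0.261) and an r of 0.753 without the 2 mice farthest from the median of Bcl11b. The median r was -0.02 for the 6 upper pairs, 0.06 for the 10 deep pairs and -0.05 for the 20 pairs of an upper and a deep gene. The pairs share genes and libraries, so these medians are descriptions. Of the 36 pairs, 18 were positive and 18 negative. After each genotype was centred on its own mean, the medians were 0.15, 0.14 and -0.10, so the median of the upper pairs changed sign.

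**Figure D4:**
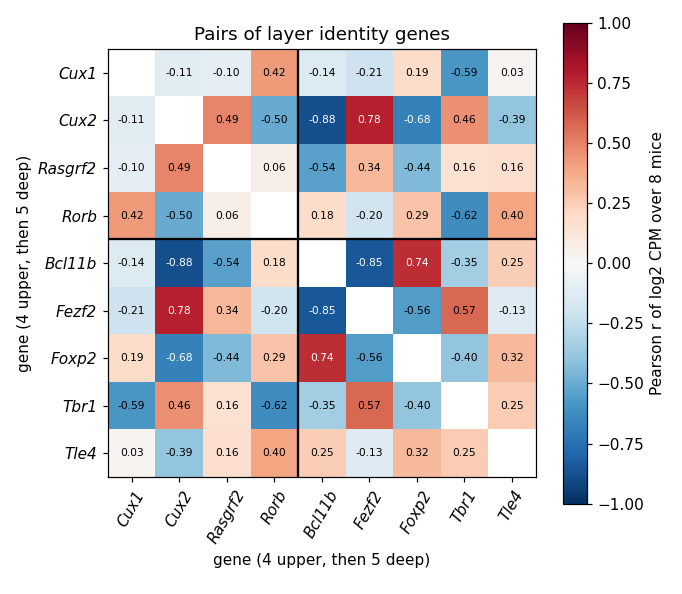
The colour and number in each square give Pearson's r of log2 CPM over the 8 mice for a pair of layer genes, with black lines between the 4 upper and the 5 deep layer genes. Blue squares join Bcl11b to Cux2 and Fezf2, red squares join Cux2 to Fezf2 and Bcl11b to Foxp2, and neither block along the diagonal is of 1 colour.

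The order of the mice in Bcl11b was close to their order in genes of striatal projection neurons, the neurons of the caudate and putamen that lie under the cortex. The summed level of 13 such genes, led by Adcy5 and Pde10a, was 1330, 2570, 1849 and 1425 CPM in m677, m668, m665 and m659 and 2841, 1410, 1978 and 2434 CPM in m671, m661, m660 and m658. It thus ran from 1330 to 2570 in PS19 mice and from 1410 to 2841 in Adrb1-A187V;PS19 mice, and none of the 13 genes was at 0. All 13 had a positive log2 fold change, with a median of 0.32. In edgeR the neuropeptide gene Tac1 was the 1 of them with an unadjusted p under 0.05 (log2 fold change 0.47, edgeR adjusted p = 0.9996), next to 2.80% of all genes tested. By DESeq2's Wald test the unadjusted p of Tac1 was 0.107. Each of the 9 layer genes was correlated with the summed levels of 8 lists of marker genes of other cells or regions. None of these 72 relations passed an adjusted p of 0.05, and 7 had an unadjusted p under 0.05, of which 5 were with the striatal sum.

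Bcl11b had the highest r with the striatal sum, 0.938 (exact permutation p = 0.00258, adjusted p = 0.143 over the 72), with a rho of 0.905 (exact permutation p = 0.00456, adjusted p = 0.261). The r was 0.937 after each genotype was centred and 0.951 without the 2 mice farthest from the median of the sum. Foxp2 had an r of 0.796 (exact permutation p = 0.0161, adjusted p = 0.295), a rho of 0.881 (exact permutation p = 0.00724, adjusted p = 0.261) and an r of 0.634 without those 2 mice. The cortical genes Cux2, Fezf2 and Rasgrf2 ran against it, with r = -0.796, -0.754 and -0.740 (exact permutation p = 0.0205, 0.0266 and 0.0351, adjusted p = 0.295, 0.320 and 0.361), rho = -0.691, -0.762 and -0.762 (exact permutation p = 0.0694, 0.0368 and 0.0368, adjusted p = 0.625, 0.441 and 0.441) and r = -0.867, -0.777 and -0.671 without the 2 mice. Tle4, Rorb, Cux1 and Tbr1 had an r of 0.207, 0.117, -0.0113 and -0.307 with the sum (exact permutation p = 0.605, 0.834, 0.978 and 0.447, adjusted p = 0.947, 0.957, 0.978 and 0.830). Without the 2 mice, these r were -0.176, 0.322, -0.0761 and -0.55. With the log2 striatal sum as a covariate in edgeR, an alternative added after the data were seen, the log2 fold change of Foxp2 was 0.21 with an unadjusted p of 0.0270 (adjusted p = 0.999), and that of Cux1 was 0.18. Bcl11b had -0.03, Fezf2 -0.08 and Tbr1 -0.13, the last with an unadjusted p of 0.0804 (adjusted p = 0.999), in the same fit. The part of striatal RNA in the spread of Bcl11b and Foxp2 was not tested beyond these values.

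**Figure D5:**
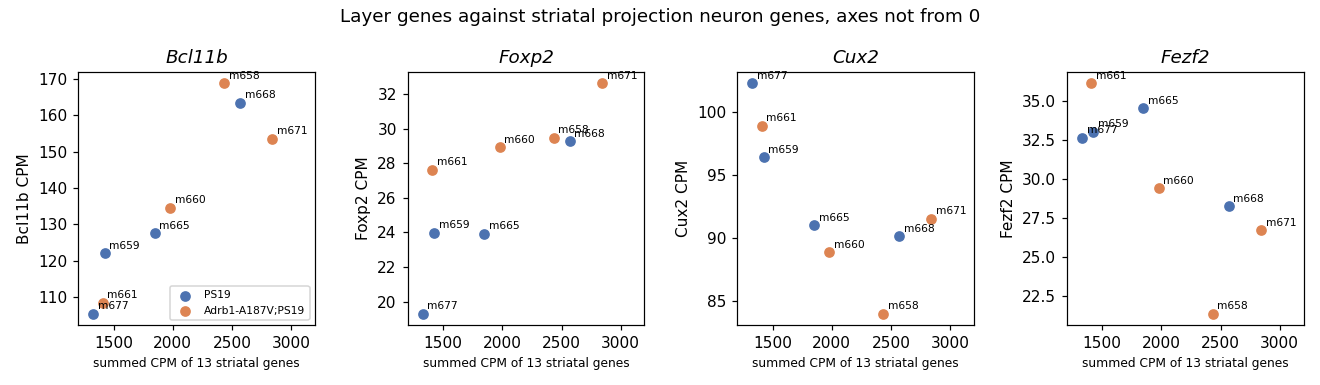
CPM of Bcl11b, Foxp2, Cux2 and Fezf2 in each mouse against the summed CPM of 13 striatal projection neuron genes, with axes that do not start at 0, PS19 mice in blue and Adrb1-A187V;PS19 mice in orange. Bcl11b and Foxp2 run up and Cux2 and Fezf2 run down from m677 and m661, with sums of 1330 and 1410, to m668 and m671, with sums of 2570 and 2841.

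The other 2 relations with an unadjusted p under 0.05 were Fezf2 with 8 interneuron genes led by Gad1 and Gad2 (r = -0.856, exact permutation p = 0.00397, adjusted p = 0.143, rho = -0.833, exact permutation p = 0.0154, adjusted p = 0.369) and Cux1 with 6 genes of excitatory neurons (r = -0.807, exact permutation p = 0.0180, adjusted p = 0.295, rho = -0.810, exact permutation p = 0.0218, adjusted p = 0.392). Without the 2 mice farthest from the median of each sum, these r were -0.631 and -0.719. The interneuron sum ran from 1076 to 1132 CPM in PS19 and from 1086 to 1211 in Adrb1-A187V;PS19 mice. Of the 8 genes, Gad2 and Slc32a1 were higher and Vip lower at an unadjusted p under 0.05, next to 2.80% of all genes tested. Each of them had an edgeR adjusted p of 0.9996. Gad2 did not overlap between the genotypes, as 2.02% of all genes tested did not. The 6 excitatory neuron genes, among them Camk2a and Nrgn, all had negative log2 fold changes, -0.13 in the median. Slc17a7 and Neurod6 had an unadjusted p under 0.05, with an edgeR adjusted p of 0.9996 for both. Their sum ran from 4799 to 5409 CPM in PS19 and from 4591 to 5138 in Adrb1-A187V;PS19 mice, so Cux1 was higher in the genotype in which these genes were lower. None of these genes was at 0, and their part in the differences of the layer genes was not tested.

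No gene had an unadjusted p under 0.05 among 7 thalamic genes such as Slc17a6 and Plekhg1, 6 tested hippocampal genes such as Prox1 and Fibcd1, and 6 each of astrocytes (Slc1a2, Slc1a3) and microglia (Csf1r, C1qa). Their median log2 fold changes were 0.10, -0.09, 0.04 and 0.02. Their summed levels overlapped between the genotypes, with astrocyte genes at 4254 to 5221 CPM in PS19 and 4335 to 5277 in Adrb1-A187V;PS19 mice. The microglial sum ran from 293 to 516 CPM in PS19 mice and from 284 to 495 in Adrb1-A187V;PS19 mice, so it varied within both.

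A further 39 layer genes, listed by layer, placed the 9 among their neighbours, and all 39 passed the filter. Of these, 4 had an unadjusted p under 0.05, 1 higher and 3 lower, next to 2.80% of all genes tested. For the 10 other genes of layers 2 and 3 the median log2 fold change was -0.02. Lhx2, a LIM homeodomain factor, was the 1 among them with an unadjusted p under 0.05, with 69.0 ± 7.67 CPM in PS19 and 58.3 ± 3.24 in Adrb1-A187V;PS19 mice (SD, n = 4 each), a log2 fold change of -0.24 (SE 0.08). Mice of both genotypes overlapped in it. The abundant Lamp5 had -0.13 (SE 0.09) and Pou3f3 -0.04 (SE 0.07).

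In the 5 other genes of layer 4 the median was 0.0034, with none at an unadjusted p under 0.05. Their log2 fold changes ran from -0.11 to 0.05, with 0.0034 (SE 0.08) in Rora and 0.01 (SE 0.12) in Whrn. Rorb, at 0.13 (SE 0.09), was not tested against them. The 12 other genes of layer 5 had the lowest median, -0.09, with 9 of 12 negative. Etv1, an ETS factor of layer 5 neurons, ran from 85.2 to 109 CPM in PS19 mice and from 76.0 to 84.6 in Adrb1-A187V;PS19 mice without overlap, a log2 fold change of -0.23 (SE 0.07) (edgeR unadjusted p = 0.00870, adjusted p = 0.9996). Ldb2, a LIM domain binding protein, had a log2 fold change of -0.18 (SE 0.08) (edgeR unadjusted p = 0.0495, adjusted p = 0.9996), with values that overlapped. With a mouse left out, the unadjusted p of Ldb2 from edgeR ran from 0.00226 to 0.145, above 0.05 without any of m671, m660, m658, m677 and m665, while that of Etv1 stayed under 0.05. Parm1 had -0.02. Fezf2, also of layer 5, was negative like these genes, and Bcl11b was not.

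Over the 12 other genes of layer 6 the median was 0.0041, with 6 positive and 6 negative. Ntsr1, the neurotensin receptor whose promoter is widely used to label corticothalamic neurons of layer 6, had 6.69 ± 1.21 CPM in PS19 and 8.41 ± 0.676 in Adrb1-A187V;PS19 mice (SD, n = 4 each). Its log2 fold change was 0.33 (SE 0.14) (edgeR unadjusted p = 0.0408, adjusted p = 0.9996), on 77 to 167 counts per mouse, and its genotypes overlapped. The unadjusted p of Ntsr1 from edgeR was up to 0.121 with a mouse left out, and above 0.05 without any mouse but m661 or m677. Hs3st4 and Rprm had -0.04 and -0.10. The other 11 genes of layer 6 had an unadjusted p above 0.05.

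The tested genes outside the 9 whose log2 CPM followed the upper minus deep difference most closely over the 8 mice, among 10429 with a mean of at least 10 CPM, were Slc6a20a (r = 0.973), 4632404H12Rik (0.966), Apeh (0.943), Eml3 (0.942) and Col6a2 (0.938). The closest in the opposite direction were Gnb5 (r = -0.981), Zfp385b (-0.961), Gde1 (-0.957), Aebp2 (-0.956) and Ric8a (-0.953). They were picked as extremes of a ranking over 8 libraries, so the values describe the ranking and have no test. None of the 10 had an unadjusted p under 0.05 between the genotypes.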

How the data were processed

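Total RNA of mouse cortex was sequenced by the authors as paired-end reads, aligned to GRCm38 with HISAT2 2.0.5 and counted per Ensembl gene with featureCounts 1.5.0-p3, and the raw counts were deposited without normalization. Strand and multiple-mapping settings are not given in the sources used here. Annotation rows overlapping Cux1, Cux2 and Foxp2 held 67, 10 and 0 counts in all 8 mice together. The deposited table also gives a gene length in bases per gene, used for CPM per kb.

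Genes were filtered with filterByExpr (17195 of 54532 kept), normalized with TMM and tested with edgeR 4.0.16 (quasi-likelihood test, 2-sided, no covariates, all 8 mice) in R 4.3.3, and p-values were adjusted by Benjamini and Hochberg over these genes. Intervals of fold changes use the test's degrees of freedom. Log2 CPM used a prior count of 2. Correlations over mice were tested by all 40320 permutations, 2-sided. Alternatives were DESeq2 1.42.0, limma-voom (limma 3.58.1), DESeq2's size factors, other count filters, a prior count of 0.5, other member sets and each mouse left out. Counts of 16976 genes were also simulated, with 200 of them changed 2-fold. Each gene was given the spread typical of genes at its level and was drawn independently of the others. Genes that vary more than that between mice, or that vary together, are not covered. Of the changed genes 98.0% reached an unadjusted p under 0.05, as did 4.75% of those left alone. Smaller changes were not simulated, and the largest change among the layer genes was 1.23 times, in Foxp2. The 98.0% therefore does not tell how often changes of the size seen in the layer genes would be found.

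The members and lists were chosen with earlier results of these data known. The named genes were the 9 members, the listed layer genes with an unadjusted p under 0.05, the 2 most abundant genes of each list and the 5 genes at each end of the ranking against the upper minus deep difference. The values of 1 of the 8 lists of other cells or regions are not reported here. Slc17a7, Neurod6, Tac1, Slc32a1 and Vip were named after their values were seen. The libraries are separate mice. Per the study's methods, controls were littermates, but which mice shared a litter or a batch is not in the labels.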

Additional observations from a re-analysis of the deposited data

Results flagged for a closer look

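Among the 4 PS19 mice, the deep layer score of m677 lay apart from the other 3, with a gap to the next mouse of 0.836 of the group's range. The score was -0.15 in m677 and between 0.02 and 0.06 in m665, m659 and m668. It was the 1 value set apart in this way among 24 groups of 4 mice examined for the 9 genes and 3 scores, where chance gives about 1 in 20. Foxp2 and Bcl11b were lowest in m677 among all 8 mice, and so was the summed level of the 13 striatal projection neuron genes, 1330 CPM. Without m677 the log2 fold change of Foxp2 was 0.21 in place of 0.30, and the upper minus deep difference between the genotypes was 0.08 in place of 0.02.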

How the results depend on the processing

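No paired analysis was possible because nothing in the labels ties a mouse of one genotype to a mouse of the other. With no filter beyond 1 count, 1366 of 33614 genes had an unadjusted p under 0.05 in place of 481 of 17195. After adjustment 66 in place of 0 passed, no layer gene among them. Without m661 and without m658, 1 and 2 genes passed after adjustment, none of the 9 among them. The number of layer genes with an unadjusted p under 0.05 was between 2 and 4 in all alternatives. Among the 39 other layer genes it was 9 in place of 4 with no filter beyond 1 count and 2 to 5 when each mouse was left out, with 2 without m658. The upper minus deep difference between the genotypes was 0.15 in place of 0.02 without Bcl11b and Foxp2, -0.0042 without Rorb, and between -0.02 and 0.08 with each mouse left out, so its sign was not settled. No pair of layer genes passed in any alternative. Signs changed for Rasgrf2 (0.00013 without m671, 0.0262 without m659 and 0.0187 with the striatal sum as a covariate, from -0.0743 to 0.0262 over the fits with a mouse left out), Tle4 (-0.0065 without m660 and -0.0016 without m677, with 0.0494 as the highest, without m659) and Bcl11b (-0.03495 with the striatal sum as a covariate). With 4 mice per group, the standard errors of the log2 fold changes were between 0.06 and 0.13 for the 9 genes. None of the 9 passed after adjustment, with differences up to 0.30 in Foxp2, and the smallest difference that could be detected was not measured.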
